A study of Saccharomyces cerevisiae with 12 samples.

Results

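The genes described here are 44 budding yeast (Saccharomyces cerevisiae) genes of the cell wall: enzymes that synthesise glucan and chitin, enzymes that cut and rejoin these polymers, proteins anchored in the wall, and components of the signalling pathway that guards it. They were taken from a list of names chosen with earlier results of these data known. On the arrays, 59 probe sets named 1 of them and no other gene. The set of highest mean signal stood for a gene that had several. All 44 were found among 5859 named features, 43 under their own symbol and 1, KNR4, under its current symbol SMI1. Of the 44, 43 passed the filter on low values that left 4687 features. PKC1, which encodes the protein kinase C at the head of the integrity pathway, did not pass it and was not tested.

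Total RNA was hybridised to 12 1-colour Affymetrix arrays in 4 groups of 3. A temperature-sensitive (ts) mutant of RAP1 and one of ABF1 each had a wild-type control of its own. All groups grew at 25 C and spent 1 h at 37 C, wild types included, so no array shows cells without the heat shift. Per the labels both ts proteins lose DNA binding at 37 C, and YPD is named as the medium for every group but the abf1 wild type, whose label names none. The sources used here do not give the strain backgrounds or the number of clones behind each mutant. The labels do not say whether replicates came from separate cultures, so the p-values cover the spread among these arrays, part of which may be technical.

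The wall of budding yeast is a mesh of β-1,3-glucan with β-1,6-glucan, some chitin and an outer coat of mannoproteins. Growth needs it to be built, opened and cross-linked again, which glucanases and transglycosylases do outside the plasma membrane. Wall stress, heat included, is sensed by membrane proteins that act through Rho1, Pkc1 and a kinase cascade ending in the MAP kinase Slt2, which activates the transcription factor Rlm1. Rap1 and Abf1 are general regulatory factors that bind many yeast promoters.

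The values are MAS5 signals per probe set, scaled to a common mean per array. A control of RNA integrity and labelling differed between groups: the signal ratio of the 3' to the 5' probe set of ACT1, the actin gene, was 18.2, 6.58 and 2.56 in the rap1 wild type and 48.4, 20.1 and 28.0 in rap1 ts. In the abf1 series it was 8.73, 11.4 and 17.4 in the wild type and 32.7, 3.47 and 4.41 in the mutant. The same ratio for SPT15 was 7.08, 5.87 and 2.97 in the rap1 wild type and 56.9, 8.91 and 7.87 in rap1 ts. In the abf1 series it was 4.65, 7.08 and 5.62 in the wild type and 16.2, 4.51 and 3.68 in the mutant. That of SRB4 was 151, 24.9 and 26.6 in the rap1 wild type and 238, 85.9 and 580 in rap1 ts. In the abf1 series it was 79.7, 99.7 and 701 in the wild type and 337, 121 and 45.4 in the mutant. In the rap1 series, wild-type array 2 stood apart with the lowest value of the 12 arrays for 26.5% of all features, and ts array 1 with the lowest for 27.8%. RAP1 RNA had a log2 fold change of -0.12 in rap1 ts (limma adjusted p = 0.842) and ABF1 RNA one of 1.61 in abf1 ts (limma adjusted p = 1), but a ts allele acts on the protein, so these values do not check the labels.

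In rap1 ts 27 of the 43 tested wall genes fell relative to its wild type when arrays were paired by replicate number, and 3 without pairing, while 0 passed the test in the other direction. The median log2 fold change of the 43 members was -1.06, against 0.088 over all features, and 35 of 43 members lay below 0 (81.4%, against 44.1% of all features) and 8 above. Without regard to pairing, limma called 3 members lower: GSC2, CIS3 and SVS1. That is 6.98% of the members, against 0.363% of all features, and 0 were called higher (0.0427% of all features). At an unadjusted p under 0.05, 24 of 43 were lower (55.8%, against 9.34% of all features) and 0 higher (12.9% of all features). Arrays of the same replicate number deviated together, and with the replicate number as a block 27 members fell, or 62.8% against 10% of all features called lower. With that block 0 members rose, where 15.0% of all features were called higher. Of the 27 that fell, 26 were lower in all 3 pairs of arrays and 24 were at least 2-fold lower. Among all 43, 29 were lower in all 3 pairs (67.4%, against 21.3% of all features) and 2, KNR4 and MID2, were higher in all 3. The groups did not overlap for 19 members, all of them lower in rap1 ts (44.2%, against 10.5% of all features), and for 0 members in the other direction (16.1% of all features). Of the 100 lowest log2 fold changes among 4687 features, 13 belonged to the members, and of the 20 lowest, 5 did: TOS1, TOS6, SIM1, GSC2 and TIR1. Since the members were chosen with earlier results of these data known, these shares describe them and are not an independent test.

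The number of members called without a block depended on single arrays, and shares of all features with arrays left out are not given here. The count was 0 without rap1 wild-type array 1, and 1 without rap1 wild-type array 2, rap1 ts array 1 or rap1 ts array 3. It was also 1 without abf1 wild-type array 1, abf1 wild-type array 3 or abf1 ts array 2, which share the estimate of the spread, and 5 without rap1 ts array 2 or abf1 ts array 1. With the block, 19, 26 and 19 members fell after leaving out pair 1, 2 or 3, of which 19, 24 and 19 were among the 27. Without rap1 ts array 1 the log2 fold changes of 9 of the 27 shrank by over 1.5 times: BGL2 to -0.56, CCW14 to -0.92, CHS2 to -0.81, CWP1 to -0.67, EXG1 to -0.94, GAS1 to -0.90, GAS5 to -0.64, PIR1 to -0.48 and TOS6 to -1.43.

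**Figure D1:**
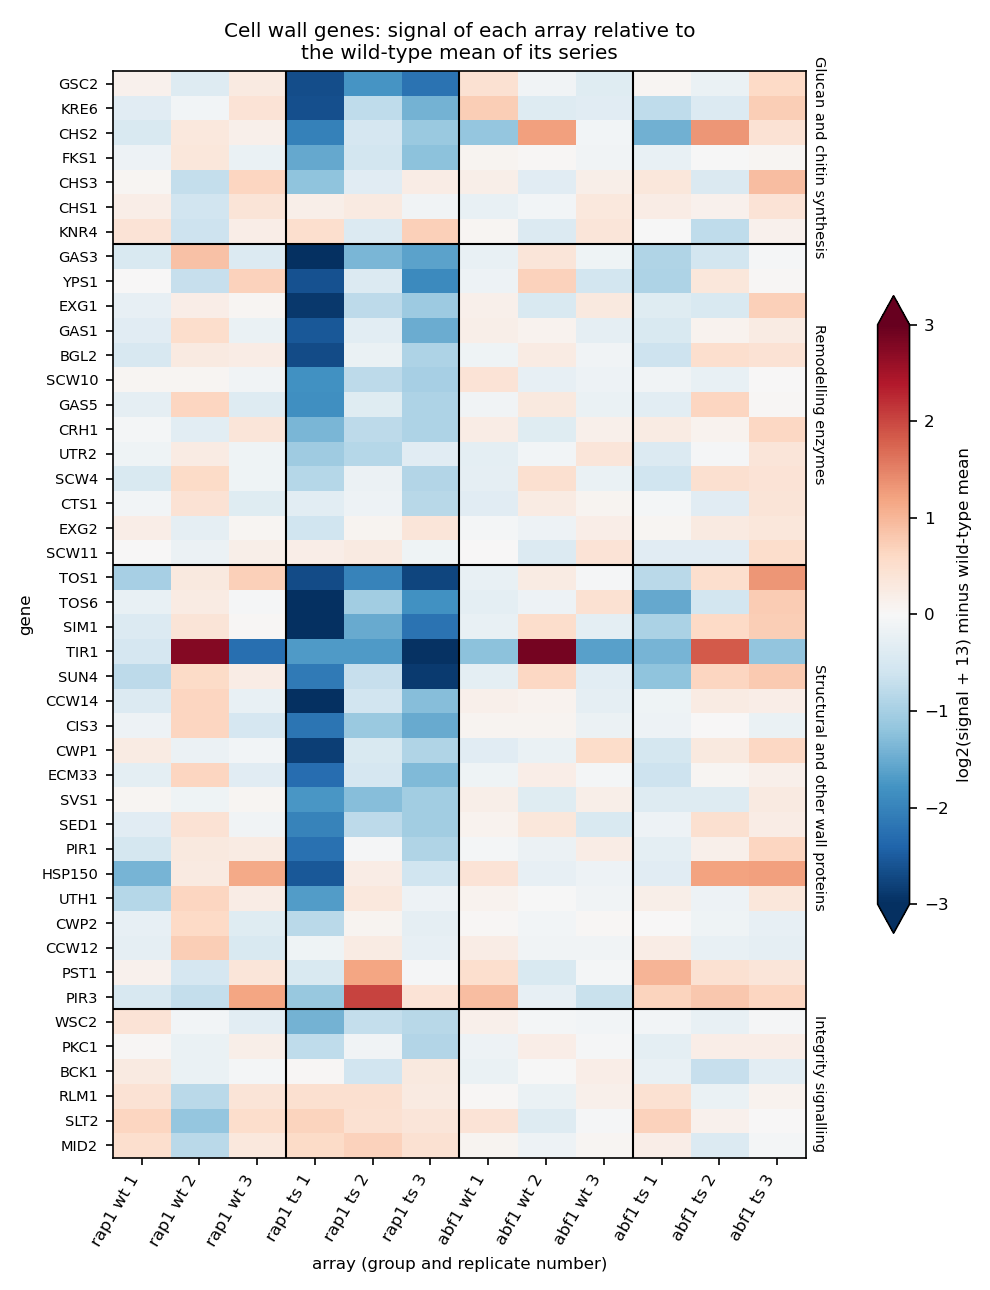
Signal of 44 cell wall genes on 12 arrays, as log2(signal + 13) minus the mean of the 3 wild-type arrays of the same series. Rows are genes in 4 classes and columns are arrays in 4 groups. Blue fills most of the 3 rap1 ts columns and is deepest in array 1, where 29 of the 43 tested genes had their lowest value of the 12 arrays. The abf1 ts columns hold both signs, with TIR1 high in array 2 and TOS6 low in array 1.

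The pair of β-1,3-glucan synthase genes was lower in rap1 ts. GSC2 encodes the catalytic subunit that yeast induces under stress and on poor carbon sources. Its signal was 2905, 2019 and 3214 in the rap1 wild type and 412, 768 and 562 in rap1 ts. All 3 mutant arrays lay well under all 3 wild-type arrays, and GSC2 fell 4.65-fold (log2 fold change -2.22, SE 0.32, limma adjusted p = 0.0112, and 0.00580 with the block). The call was lost without rap1 wild-type array 1 (adjusted p = 0.0581) and on the 6 arrays of the rap1 series alone (0.0733). FKS1, the catalytic subunit of growing cells, had 12279, 17186 and 11946 in the wild type and 4664, 9353 and 5759 in rap1 ts. These groups did not overlap either. FKS1 had a log2 fold change of -1.11 (SE 0.25, limma adjusted p = 0.0903) and fell with the block (adjusted p = 0.00589).

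In the abf1 series neither glucan synthase gene passed the test. GSC2 signals were 3739, 2536 and 2110 in the wild type and 2841, 2367 and 4140 in abf1 ts, with overlapping groups and a log2 fold change of 0.16 (95% interval -0.54 to 0.86). FKS1 had -0.07 there (95% interval -0.61 to 0.48).

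KRE6, needed for β-1,6-glucan, had 1434, 1722 and 2400 in the rap1 wild type and 282, 1058 and 664 in rap1 ts. The groups did not overlap, and KRE6 fell with the block (log2 fold change -1.61, limma adjusted p = 0.0262, and 0.118 without it). CHS2, whose enzyme lays down the primary septum, fell with the block (-1.21, adjusted p = 0.0112, and 0.313 without it), from 388, 679 and 598 to 123, 376 and 244. CHS3, for the bulk of chitin, had -0.44 (blocked adjusted p = 0.278) and CHS1, a repair enzyme, 0.11 (0.766), neither past the test. KNR4, a regulator that ties wall synthesis to the integrity pathway, had 0.27 (blocked adjusted p = 0.293). In all, 4 of the 7 synthesis genes fell with the block, where 10% of all features did, and 0 rose, where 15.0% did. Without the block 1 of the 7 fell (0.363% of all features).

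**Figure D2:**
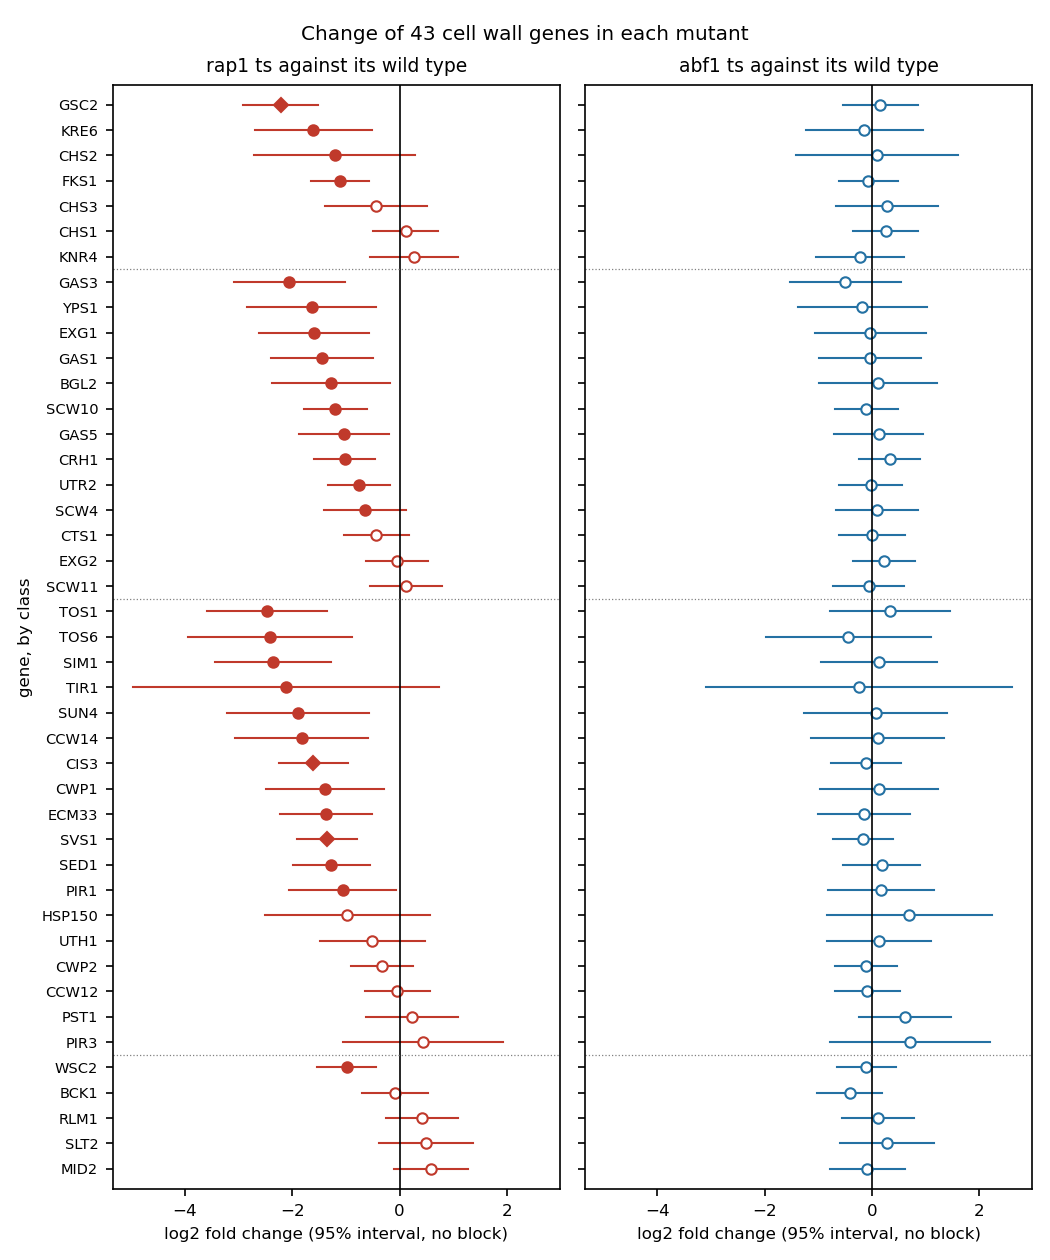
Log2 fold change of 43 cell wall genes in rap1 ts (left) and abf1 ts (right), each against its own wild type. Lines are 95% intervals of the limma fit without a block, filled symbols passed the test with the replicate block, and diamonds also passed without it. On the left 27 symbols are filled, 3 of them diamonds (GSC2, CIS3 and SVS1), and on the right 0 are filled.

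Remodelling enzymes were lower in rap1 ts with few exceptions: 10 of 13 fell with the block, where 10% of all features did, and 0 rose, where 15.0% did (class median log2 fold change -1.04). Without the block 0 of the 13 fell. The Gas family includes enzymes that elongate β-1,3-glucan side chains at the cell surface. GAS3 had 2016, 5104 and 2072 in the rap1 wild type and 291, 1070 and 901 in rap1 ts, with no overlap (log2 fold change -2.06, SE 0.48, limma adjusted p = 0.0903, and 0.00589 with the block). GAS1, the main member of the family, had 11089, 20432 and 12270 against 2396, 11285 and 5017, so that ts array 2 lay within the range of the wild type. It fell with the block (-1.45, adjusted p = 0.00842, and 0.116 without it). GAS5 had -1.04 and fell likewise (blocked adjusted p = 0.0108).

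EXG1, the major secreted exo-β-1,3-glucanase, went from 6201, 8403 and 7608 to 970, 4241 and 3429 and fell with the block (-1.60, adjusted p = 0.00913, and 0.116 without it). Its relative EXG2, which is held at the membrane, had a log2 fold change of -0.05 (blocked adjusted p = 0.905). BGL2, an abundant endo-β-1,3-glucanase of the wall, fell with the block (-1.27, adjusted p = 0.0170). SCW10 and SCW4, related glucanase-like wall proteins, fell with the block as well (-1.20, adjusted p = 0.00903, and -0.64, adjusted p = 0.0410). SCW4 was called in 2 of 7 blocked settings, and without wild-type array 2 its log2 fold change was -0.35. SCW11, a glucanase-like protein of daughter cells, had 1268, 1099 and 1406 against 1448, 1512 and 1143, overlapping groups with a log2 fold change of 0.12 (blocked adjusted p = 0.723).

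CRH1 and UTR2 encode the transglycosylases that link chitin to glucan. Both had groups that did not overlap and both fell with the block (CRH1 -1.03, adjusted p = 0.0102; UTR2 -0.76, adjusted p = 0.0212). CTS1, the chitinase of cell separation, had -0.43 and did not pass (blocked adjusted p = 0.137). YPS1, an aspartic protease of the cell surface, had 1439, 873 and 2288 in the wild type and 223, 1069 and 372 in rap1 ts. Its groups overlapped, since pair 2 moved the other way by 0.29 on the log2 scale. YPS1 nonetheless fell with the block (-1.64, adjusted p = 0.0406), and it was the single member of the 27 that was not lower in all 3 pairs.

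Structural and other wall proteins held the largest log2 fold changes: 12 of 18 fell with the block, where 10% of all features did, and 0 rose, where 15.0% did (class median -1.36). Without the block 2 of the 18 fell, where 0.363% of all features did. CIS3 belongs to the Pir proteins, which are bound directly to β-1,3-glucan through their internal repeats. It had 18938, 32896 and 14929 in the rap1 wild type and 4631, 9665 and 7311 in rap1 ts. No mutant array reached the wild-type range, and CIS3 fell 3.05-fold (log2 fold change -1.61, SE 0.30, limma adjusted p = 0.0345, and 0.00321 with the block). The call without the block held in 11 of 22 other settings. In abf1 ts CIS3 had -0.11 (95% interval -0.76 to 0.54).

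The 4 Pir genes lie as neighbouring pairs, HSP150 next to CIS3 on chromosome X and PIR1 next to PIR3 on chromosome XI. PIR1 fell with the block (-1.06, adjusted p = 0.0181), although its groups overlapped. HSP150 had -0.98 and did not pass (blocked adjusted p = 0.109). Its wild-type signals ran from 2263 to 13293, a 5.88-fold range. PIR3 had 532, 452 and 1707 in the wild type and 332, 3074 and 994 in rap1 ts, with pair changes of -0.66, 2.73 and -0.77 on the log2 scale. It had a log2 fold change of 0.43 and did not pass (blocked adjusted p = 0.608).

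The other adjacent members, CWP2 and CWP1 on chromosome XI, encode mannoproteins with glycosylphosphatidylinositol (GPI) anchors. CWP1 had 6791, 5028 and 5363 against 792, 4146 and 3051, with no overlap, and fell with the block (-1.39, adjusted p = 0.0387, and 0.153 without it). CWP2 had -0.33 and did not pass (blocked adjusted p = 0.174). The gene of the abundant GPI protein Ccw12 did not pass: CCW12 had 27767, 55901 and 24215 against 30694, 39800 and 28282, with a log2 fold change of -0.04 (blocked adjusted p = 0.881). CCW14, another GPI protein of the inner wall, had 7696, 15956 and 8762 against 821, 6903 and 4216 and fell with the block (-1.82, adjusted p = 0.00961, and 0.120 without it). Its groups did not overlap. SED1, a major GPI protein of stationary cells, fell with the block (-1.27, adjusted p = 0.00639), and ECM33 did too (-1.38, adjusted p = 0.00618). PST1, a close relative of ECM33, had 0.23 and did not pass (blocked adjusted p = 0.673), with 1 pair higher by 1.68 and the others lower.

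SVS1, TOS1 and TOS6 are known as genes that the G1 factor SBF binds, and all 3 encode wall or cell surface proteins. SVS1 had 7517, 6557 and 7519 in the rap1 wild type and 2144, 2962 and 3482 in rap1 ts. Both groups were tight and far apart, and SVS1 fell 2.55-fold (log2 fold change -1.35, SE 0.26, limma adjusted p = 0.0418, and 0.00589 with the block). The call without the block held in 11 of 22 other settings. TOS1 had 1320, 3228 and 4358 against 402, 655 and 381, the largest change of the 43 (-2.48, SE 0.52, adjusted p = 0.0686, and 0.00589 with the block). TOS6 had 4382, 6119 and 5035 against 235, 2464 and 1454 (-2.41, SE 0.71, adjusted p = 0.115, and 0.00942 with the block). Neither pair of groups overlapped.

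The SUN family of glucanase-like proteins is secreted and takes part in septum formation. SIM1 had 4790, 8303 and 6496 against 604, 2241 and 1358, with no overlap, and fell with the block (-2.36, SE 0.50, adjusted p = 0.0764 without it and 0.00346 with it). SUN4 fell with the block (-1.89, adjusted p = 0.0132), with groups that overlapped. UTH1 had -0.51 and did not pass (blocked adjusted p = 0.0604). The remaining gene of the family, NCA3, is not among the 44. It had 110, 153 and 542 in the wild type and 242, 916 and 780 in rap1 ts, and rose with the block (1.35, limma adjusted p = 0.0433, and 0.405 without it), with overlapping groups.

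TIR1, a mannoprotein gene known for induction by cold and low oxygen, varied most within groups. It had 2633, 25364 and 768 in the rap1 wild type, 704, 12469 and 533 in the abf1 wild type and 637, 6049 and 735 in abf1 ts. Replicate 2 was thus far above the others in 3 groups, while rap1 ts had 1136.5, 1136.8 and 470. The wild-type ranges were 33.0-fold and 23.4-fold. TIR1 fell with the block (-2.12, adjusted p = 0.0282, and 0.351 without it), with pair changes of -1.20, -4.46 and -0.69. Without wild-type array 2 its log2 fold change was -0.74, and without wild-type array 3 it was -3.25. Its relatives TIR2, TIR3 and TIR4, outside the 44, also fell with the block (-0.91, -0.91 and -0.84, limma adjusted p = 0.0258, 0.0275 and 0.0356), and each had its highest rap1 wild-type signal in array 2.

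**Figure D3:**
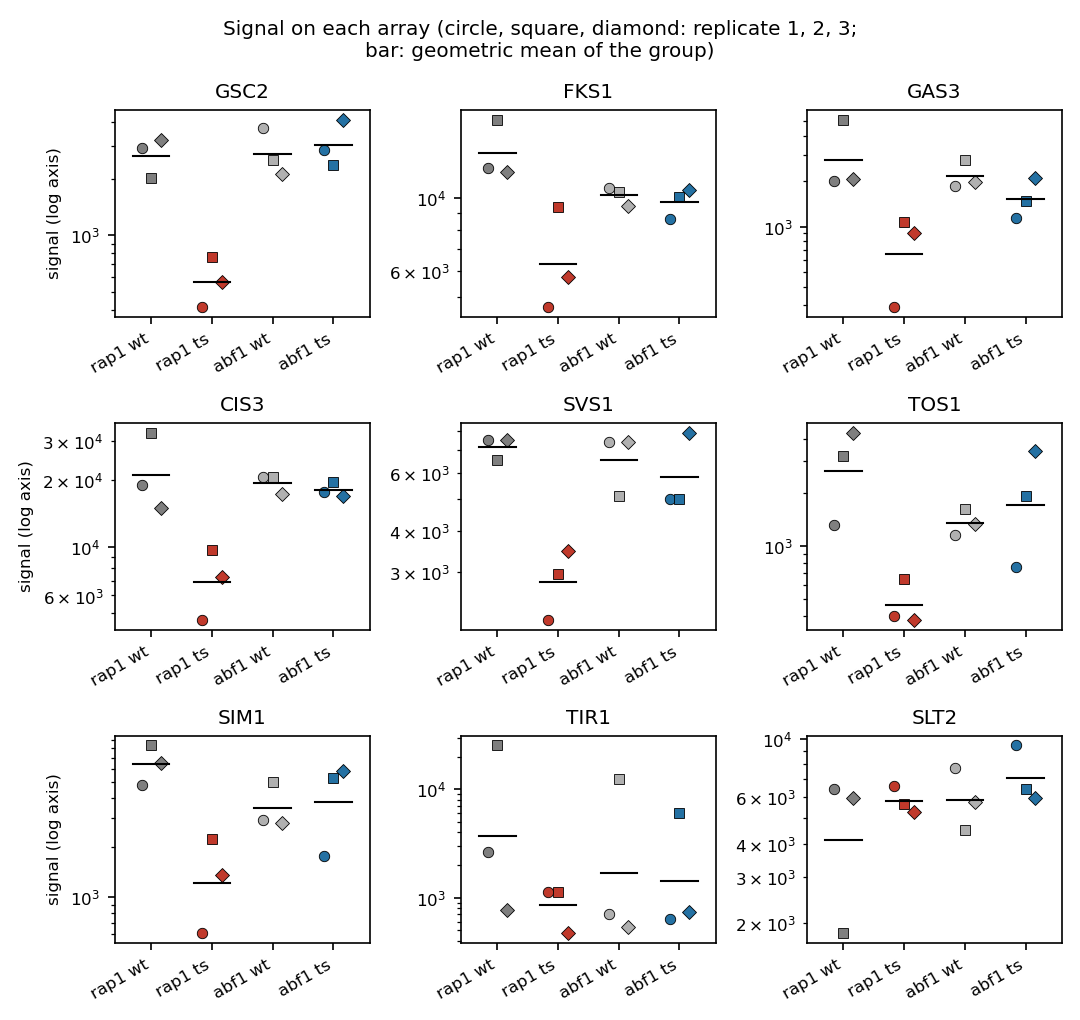
Signals of 9 cell wall genes on each array, on log axes, in 4 groups of 3 arrays. Circles, squares and diamonds are replicates 1, 2 and 3, and bars are geometric means. For GSC2, FKS1, GAS3, CIS3, SVS1, TOS1 and SIM1 the 3 rap1 ts points lie below the 3 points of its wild type. TIR1 is high in replicate 2 of every group but rap1 ts, and SLT2 is low in rap1 wild-type array 2.

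Of the signalling genes, 1 of 5 tested fell with the block, where 10% of all features did, and 0 fell without it. None rose with the block, where 15.0% of all features did, and the class median log2 fold change was 0.41. The member that fell was WSC2, a sensor of wall stress in the plasma membrane. It had 5064, 3564 and 3041 in the rap1 wild type and 1413, 2324 and 2122 in rap1 ts, with no overlap (log2 fold change -0.99, SE 0.25, limma adjusted p = 0.104, and 0.0202 with the block). MID2, a sensor of another family, had 1644, 657 and 1439 against 1738, 1895 and 1603 (0.58, blocked adjusted p = 0.143). The MAP kinase gene SLT2 had 6422, 1832 and 5942 against 6586, 5662 and 5269 (0.50, blocked adjusted p = 0.239). RLM1 had 5153, 2138 and 4918 against 5301, 5294 and 4577 (0.41, blocked adjusted p = 0.253). In these 3 genes array 2 of the rap1 wild type was the lowest of the 12 arrays. In pair 2 they were higher in the mutant by 1.62 (SLT2), 1.51 (MID2) and 1.30 (RLM1) on the log2 scale, and in pairs 1 and 3 the changes lay between -0.173 and 0.155. BCK1, the kinase at the top of the cascade, had -0.08 (blocked adjusted p = 0.810). PKC1, untested for its low signal, had 299, 253 and 334 against 167, 273 and 152.

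Genes tied to Rlm1 form a list of 17 tested features, 13 of which are also among the 44. It had a median log2 fold change of -0.98 in rap1 ts and 0.19 in abf1 ts, against 0.088 and -0.029 over all features. With the block 9 of the 17 fell (10% of all features did) and 0 rose (15.0% of all features did), and 2 fell without it (0.363%). The 9 include the feature MLP1 outside the 44 (-0.93, limma adjusted p = 0.0172), while SLT2, PST1 and PIR3 of the same list did not pass. MLP1 was matched by symbol, which now stands for a nuclear pore gene, so the value is not that of the MAP kinase-like gene also called MLP1. Apart from MLP1, the 9 are members whose calls are given above. Of the 4 features outside the 44, PRM5 (0.175), NCW2 (-0.69) and PUN1 (-0.49) did not pass (blocked limma adjusted p = 0.659, 0.0772 and 0.179).

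A wider list of 57 tested wall and integrity genes outside the 44 moved less, with a median log2 fold change of -0.32. Without the block 0 of these were called by limma, where 0.363% of all features were called lower and 0.0427% higher. At an unadjusted limma p under 0.05, 10 were lower (9.34% of all features were) and 1 higher (12.9% of all features were). With the block 13 fell (10% of all features did) and 2 rose (15.0% of all features did). The nuclear pore gene MLP1, matched by symbol, is counted among the 13. With a block shared by both series 8 fell and 1 rose, where 373 of all 4687 features fell and 567 rose. The largest falls were those of the phospholipase gene PLB2 (-1.60, blocked adjusted p = 0.0112), the wall mannoprotein gene FIT3 (-1.56, 0.00752), SRL1 (-1.36, 0.00321), the KRE6 relative SKN1 (-1.13, 0.0429), PRY2 (-1.13, 0.0276) and the daughter-specific glucanase-like DSE2 (-0.94, 0.0121). SRL1 had 15630, 23201 and 10634 in the wild type and 5887, 7363 and 5254 in rap1 ts. Besides NCA3, ZDS1 rose (0.73, blocked adjusted p = 0.0229). Upstream integrity genes did not pass with the block: WSC1 had -0.94, RHO1 -0.40, ROM2 0.34, MKK1 -0.08 and MKK2 0.17.

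Of 16 tested G1 genes tied to SBF and outside the wall, 3 fell with the block (10% of all features did) and 1, HO, rose (15.0% of all features did), with a median of -0.47. With a block shared by both series 2 fell and 0 rose, where 373 of all 4687 features fell and 567 rose. The homeobox repressor gene YHP1 fell from 1025, 1265 and 597 to 146, 174 and 230 (-2.27, limma adjusted p = 0.0154).

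**Figure D4:**
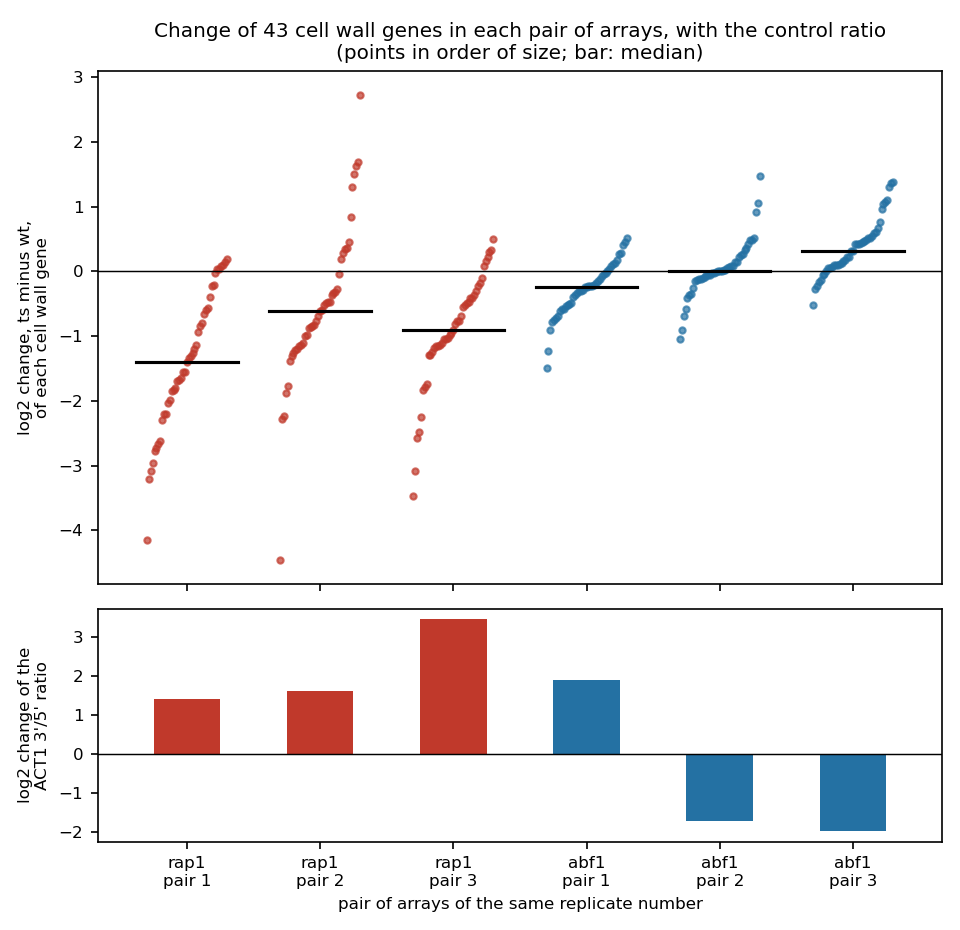
Upper panel, log2 change of each of 43 cell wall genes between the mutant and wild-type arrays of the same replicate number, in 3 pairs per series, with bars at the median. Lower panel, log2 change of the ACT1 3' to 5' signal ratio in the same pairs. The medians are -1.39, -0.61 and -0.90 in rap1 and -0.24, 0.00 and 0.32 in abf1, and the ratio was higher in the mutant in the 3 rap1 pairs and in abf1 pair 1.

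The size of the fall differed between the pairs. The median of the 43 members was -1.39 in rap1 pair 1, -0.61 in pair 2 and -0.90 in pair 3, where the medians of all features were -0.09, 0.28 and 0.13. In ts array 1, 29 of the 43 members had their lowest value of the 12 arrays (67.4%, against 27.8% of all features), and in wild-type array 2, 20 had their highest (46.5%, against 11.7%). Without ts array 1 the median of the members was -0.67, and without wild-type array 2 it was -0.94.

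The change of the ACT1 ratio is given beside the same pairs. The ratio was higher in the mutant by 1.41, 1.61 and 3.45 on the log2 scale in rap1 pairs 1, 2 and 3, and in abf1 pair 1 by 1.90, where 32 of 43 members lay below 0 with a median of -0.24. In abf1 pairs 2 and 3 the ratio was lower in the mutant by 1.72 and 1.98, and the medians of the members were 0.00 and 0.32. The part of RNA integrity in the fall of the wall genes was not tested. Across genes, Spearman's rho of the log2 fold change in rap1 ts with gene length was 0.13 over the 43 members and -0.04 over 4543 single-gene features, as a description of genes that share the same arrays.

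In abf1 ts no member passed the test. Their median log2 fold change was 0.07, against -0.029 over all features, with 21 of 43 below 0 (54.5% of all features), and single members ran from -0.50 for GAS3 to 0.71 for PIR3. Limma called 0 of 43 with or without the block, where 0.0427% of all features were called lower without it, and 0 had an unadjusted p under 0.05, where 2.82% of all features were lower and 0.277% higher at that p. With the block 0.213% of all features were called lower. BCK1 was the single member whose groups did not overlap (lower in abf1 ts, as were 5.33% of all features, while 0 members and 2.28% of all features lay higher), with 1094, 1245 and 1427 in the wild type and 1065, 764 and 995 in the mutant (-0.42, limma adjusted p = 1, and 0.817 with the block).

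The difference between the mutant effects was tested directly. Without the block 0 of 43 members were called by limma and 16 were lower at an unadjusted p under 0.05 (37.2% of the members, against 4.50% of all features). With the block 14 were more strongly lowered in rap1 ts than in abf1 ts (32.6%, against 2.88% of all features), and 0 less so (6.21% of all features). All 14 were among the 27 that fell in rap1 ts. The largest were TOS1 (-2.82, blocked adjusted p = 0.0260), SIM1 (-2.50, 0.0209) and GSC2 (-2.37, 0.0235). With a block shared by both series 7 members were called (1.83% of all features). With the block after centring each array on its median 21 were called, with no share of all features given here.

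Between the wild types no member passed the test either. In the rap1 wild type relative to the abf1 wild type, 32 of 43 members lay above 0 (74.4%, against 37.4% of all features), with a median log2 difference of 0.31, against -0.111 over all features. Limma called 0 of them, and 1 was higher at an unadjusted p under 0.05 (0.384% of all features). The differences ran from -1.16 for PIR3 to 1.23 for SUN4, and TOS1 had 0.97 and SIM1 0.88 (adjusted p = 0.965 for each).

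**Figure D5:**
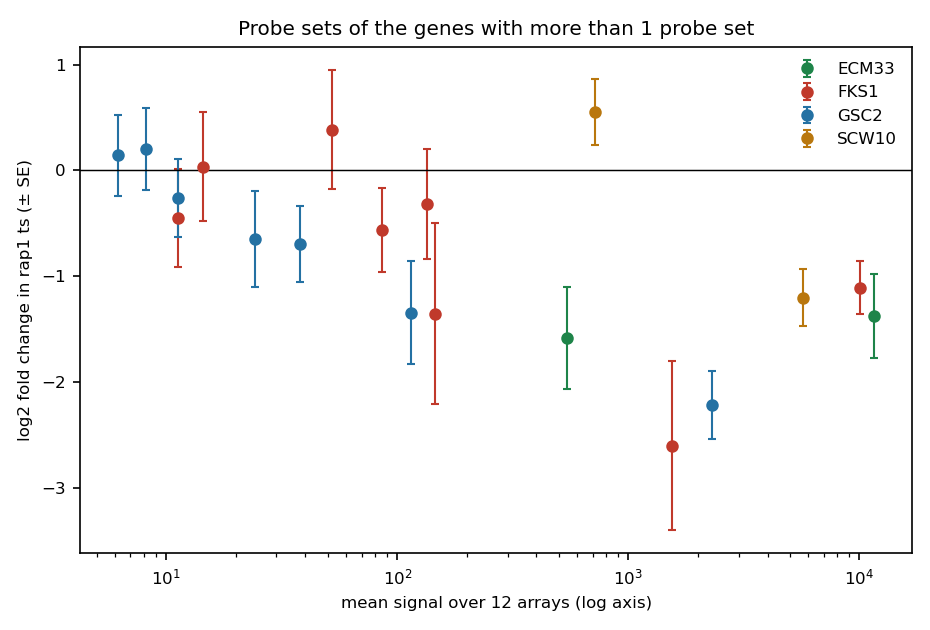
Log2 fold change in rap1 ts, with its SE, against mean signal over 12 arrays (log axis) for all probe sets of the 4 genes with more than 1. The brightest probe sets of FKS1, GSC2, ECM33 and SCW10 all lie below 0, and the dimmer one of SCW10 lies at 0.55.

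Of the 44 genes, 4 had more than 1 probe set, and all 44 chosen sets were of the plain type, which is not marked as shared with similar sequences. FKS1 had 8, 5 of them of the shared type, and GSC2 had 7, also with 5 shared. The 6 other sets of GSC2 never exceeded a signal of 338, and their log2 fold changes ran from -1.34 to 0.20. The second brightest FKS1 set, of the shared type, had 1267, 2553 and 5258 in the rap1 wild type and 164, 1002 and 417 in rap1 ts (-2.60, limma adjusted p = 0.0327 with the block over all probe sets). The dimmer ECM33 set fell as the bright one did (-1.58, blocked adjusted p = 0.0400). The probe sets of SCW10 had changes of opposite sign. The dimmer had 600, 476 and 739 against 943, 1000 and 720 (0.55, blocked adjusted p = 0.174), where the brighter had 6600, 6608 and 5974 against 1815, 3672 and 3189.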

How the data were processed

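The authors deposited 1 linear intensity per probe set and array, and the submitters' processing notes name MAS5. The sources used here give no version, settings or detection calls. Of 9335 probe sets 60 were controls, 6504 carried 1 gene name, 328 carried more than 1, and 2443 are unnamed here. Symbols come from the platform annotation, and synonyms and gene order from a gene table of assembly R64, whose coordinates are not printed because no build is named for the arrays. No sequences were used here.

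Features with a mean log2(signal + 13) under the 20th percentile (8.16) were left out, where 13 is the 10th percentile of the non-control values. All log2 values printed were computed from the deposited intensities with that offset, so they understate changes of dim genes. With limma 3.58.1 in R 4.3.3, a model of 4 group means was fitted on 12 arrays with a variance trend, and p-values were adjusted by Benjamini-Hochberg over all 4687 features, with a call at an adjusted p under 0.05. The fit was tested on simulated data. The number of arrays limits the precision.

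Deviations from group means of same-numbered arrays within a series correlated with r from 0.25 (rap1 pair 2) to 0.824 across features, above the minimum of 0.1. All 12 arrays were closest to an array of their own number, counted in either series. So the numbers were taken as pairs on the evidence of the data alone, and results with a block for the number in each series stand where they change a call.

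Members, classes, lists and tests were chosen with earlier results of these data known. Named were all members, family mates beside them and up to 6 called genes per direction of the wider wall list. The alternatives were other scalings, offsets, filters, joins of probe sets, fits on 6 arrays, no variance trend, blocks and left-out arrays. The result of 1 list is not reported here.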

Additional observations from a re-analysis of the deposited data

Results flagged for a closer look

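For 14 members the log2 change in rap1 ts differed from that in abf1 ts by limma with the replicate block, and for none without it. The difference, rap1 effect minus abf1 effect, was -2.82 for TOS1 (blocked adjusted p = 0.0260), -2.50 for SIM1 (0.0209), -2.37 for GSC2 (0.0235), -1.93 for CCW14 (0.0441), -1.56 for GAS3 (0.0488), -1.50 for CIS3 (0.0235) and -1.46 for SED1 (0.0261). It was -1.42 for GAS1 (0.0479), -1.36 for CRH1 (0.0331), -1.31 for CHS2 (0.0488), -1.24 for ECM33 (0.0412), -1.18 for SVS1 (0.0394), -1.16 for GAS5 (0.0440) and -1.04 for FKS1 (0.0361). In the same arrays the ACT1 3' to 5' ratio was higher in all 3 rap1 ts arrays than in their wild-type partners, and in abf1 ts in 1 of 3. Its part in the difference was not tested.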

How the results depend on the processing

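The count of members called lower in rap1 ts, 3 without a block, was 5 under median centring, 0 in the fit on 6 arrays and 1 without the variance trend, and ran from 0 to 5 when single arrays were left out. It was 27 with the replicate block, 27 with a block shared by both series, 26 with the block under quantile scaling, 27 with the block under median centring, and from 19 to 26 with the block when a replicate pair was left out. The 16 members called in all 7 blocked settings were FKS1, GSC2, CHS2, GAS1, GAS3, GAS5, EXG1, SCW10, CCW14, CIS3, SED1, SIM1, TOS1, TOS6, SVS1 and ECM33. For the difference between the mutant effects, 0 without a block became 1 under quantile scaling, 14 with the replicate block, 7 with a shared block, 11 with the block under quantile scaling and 21 with the block under median centring, and ran from 0 to 17 with the block when a replicate pair was left out. The causes of these moves were not tested, and shares of all features under the other scalings and left-out arrays are not given here. The median log2 fold change of the members in rap1 ts stayed between -1.39 and -0.67 over all settings run, and that in abf1 ts changed sign, from -0.145 to 0.215. With probe sets of a gene averaged, SCW10 had -0.32 in rap1 ts. No member called in rap1 ts or in the difference changed sign under any of them, and 0 members were called in abf1 ts, or higher in any contrast, under all settings run. The wild types were compared without a block within each series, since such a block does not span both series. The shared block, its scalings and the left-out pairs were chosen after seeing the data. The 3 arrays per group, and MAS5 values without detection calls, limit what can be said of dim genes such as PKC1 and CHS2.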
